A study of Mus musculus with 2 samples.

Results

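The 10 genes described here encode the insulin-like growth factor (IGF) system of 2 cultured stromal cell populations: the ligands Igf1 and Igf2, the receptors Igf1r and Igf2r, and the binding proteins Igfbp2 to Igfbp7. They were chosen by gene name, and each of the 10 was found among the 49492 gene symbols of the deposited tables. The cells were Nestin+ mesenchymal stromal cells of the heart and of the bone marrow of Nestin-GFP transgenic C57BL/6 mice 7 days old, in which a green fluorescent reporter marks cells that use the Nestin gene. RNA was taken at passage 10 in both cultures. With 1 library per tissue, the differences below cannot be checked against replicates and carry no p-value. The heart cells grew in a mixture of DMEM/F12 and IMDM with 20 ng/ml of EGF, 20 ng/ml of bFGF, 4 ng/ml of cardiotrophin-1, N2 at 1% and B27 at 2%. The bone marrow cells grew in another medium, known here only by a citation, so tissue and medium cannot be told apart. N2 and B27 are serum-free supplements that contain insulin. How many animals gave each culture is not given in the sources used here.

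IGF1 and IGF2 are small secreted hormones related to insulin. Both signal through the IGF1 receptor, a tyrosine kinase at the cell surface, while the IGF2 receptor, which is also the cation-independent mannose 6-phosphate receptor, takes IGF2 up for degradation and carries enzymes to lysosomes. The binding proteins hold most IGF outside cells, lengthen its life and limit or localize its action, and proteases that cut them set the ligand free. In bone, IGFs and their binding proteins are stored in the matrix, and in the heart IGF1 is a growth and survival signal for muscle cells.

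Levels are given in RPKM, reads scaled by gene length and library size. The differences are given as log2((heart + 1)/(bone marrow + 1)), so that a positive value means more in heart. The call "higher" was given at 2-fold or more (a difference of at least 1 in size) if the higher library reached 5 RPKM. The libraries held 53999963 reads (bone marrow) and 64872683 reads (heart), recovered from the deposited values, and 10607 and 10641 genes reached 1 RPKM. Of 12 mesenchymal stromal markers, 10 reached 1 RPKM in the marrow library and 11 in the heart library. Their levels were not all alike, and they are named here after their values were seen. Of the 11 that reached 5 RPKM, 4 were higher in heart and 1 in bone marrow. Over all genes at this floor, 7.56% and 9.51% were. Col1a1, Col1a2, Pdgfrb and Itgb1 had log2 differences of -0.02, 0.03, 0.07 and -0.03. Vim and Cd44 had -0.88 and -0.80, under 2-fold. Nt5e, below the floor, had 1.59 RPKM in the marrow library and 0.225 in the heart library. Ly6a, the stem cell antigen Sca-1, had 229 RPKM in the marrow library against 2.23 in the heart library. Thy1 (CD90) had 0.0603 and 16.7, Eng (CD105) 0.576 and 33.9, the collagen gene Col3a1 129 and 1388, and the growth factor receptor gene Pdgfra 11.6 and 27.6. The part of these differences in those of the IGF genes was not tested. None of 8 cardiomyocyte and none of 6 neural and glial markers reached 1 RPKM in either library, and Myl7 and Nkx2-5 were listed at 0 in both. Endothelial markers summed to 3.73 RPKM in bone marrow and 3.19 in heart, with Tie1 listed at 0 in both and Flt1 the highest at 2.35 and 2.23. Haematopoietic and macrophage markers summed to 5.42 and 9.55 RPKM over 10 genes.

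The libraries differed in which IGF system genes were abundant. Igf1, Igf2r and Igfbp5 were higher in heart, and Igfbp2 and Igfbp4 were higher in bone marrow. Of the 10 genes, 7 reached 5 RPKM in at least 1 library. Of these 7, 3 were counted as higher in heart, where 7.56% of the 7659 genes at this floor were, and 2 as higher in bone marrow, against 9.51% (17.1% in either direction). Igf1 and Igfbp2 reached the floor only through the library in which they were high. Of the 5 members that reached this floor in each library, Igf2r, Igfbp4 and Igfbp5 were 2-fold apart and Igf1r and Igfbp7 were not, where 8.98% of the 6049 genes at 5 RPKM in both libraries were. The median difference of the 9 genes at or above 1 RPKM was 0.69, beside -0.11 over all 11355 genes at that level. Over all genes the calls split into 579 toward heart and 728 toward bone marrow as deposited, and 704 and 583 when the median ratio of abundant genes was set to 1. Each of the 5 calls held under that scaling, but none could have been lost. It raises heart by a factor of 1.11, a move of at most 0.15 in the difference. The bone marrow calls, Igfbp2 and Igfbp4, stood at -3.95 and -2.15. In bulk RNA, fewer cells of a type and less RNA per cell cannot be told apart.

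**Figure D1:**
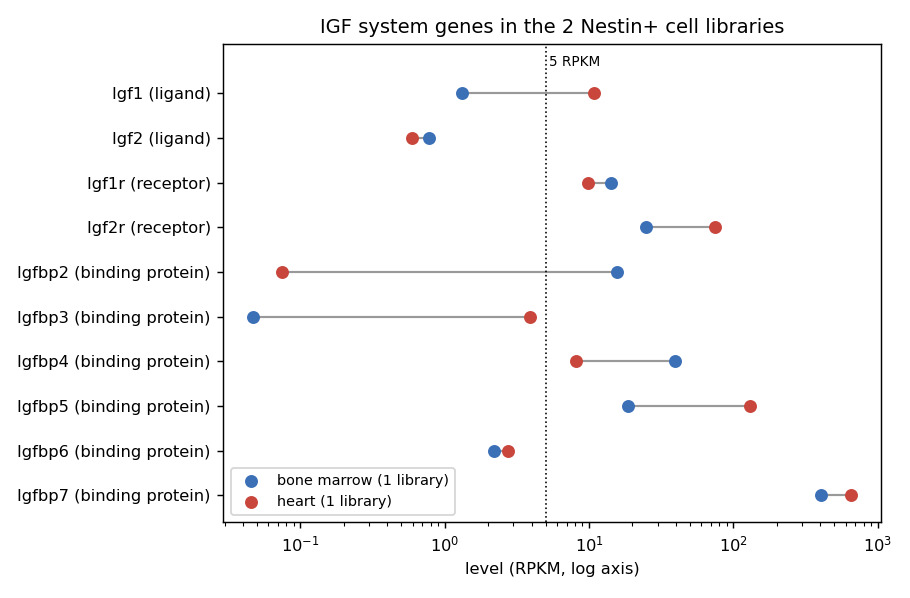
Level of each of the 10 IGF system genes in RPKM (log axis) in the bone marrow library (blue) and the heart library (red), with 1 library per tissue and no error bars; the dotted line marks 5 RPKM. Igfbp2 and Igfbp3 have the widest gaps, in opposite directions, and Igfbp7 is the most abundant gene of the set in both.

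The sequences just before the start sites are shown for 4 of the 5 genes counted as different, because these stretches lie where transcription of the gene begins. They are the 250 bases upstream of the RefSeq start site on GRCm38.p6, read in the direction of the gene. Igf1 is left out because the only RefSeq start in the table lies 2846 bases from the start of its deposited row. For Igfbp2, Igfbp4, Igfbp5 and Igf2r that distance is 23, 0, 19 and 42 bases, so positions counted from the row's start would shift by as much. Capitals mark matches, searched on both strands. The GC box was read as GGGCGG. The TATA box was read as TATAAA. The E-box was read as CANNTG. None of the matches overlapped another. The windows are chr1:72824230-72824479 (plus strand) for Igfbp2, chr11:99040994-99041243 (plus strand) for Igfbp4, chr1:72874866-72875115 (minus strand) for Igfbp5 and chr17:12769707-12769956 (minus strand) for Igf2r.
Igfbp2: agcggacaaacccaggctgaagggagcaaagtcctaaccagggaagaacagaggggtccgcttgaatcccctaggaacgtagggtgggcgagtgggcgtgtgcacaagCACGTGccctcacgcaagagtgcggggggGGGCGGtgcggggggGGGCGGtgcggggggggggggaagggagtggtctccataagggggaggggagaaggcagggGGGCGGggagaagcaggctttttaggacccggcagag
Igfbp4: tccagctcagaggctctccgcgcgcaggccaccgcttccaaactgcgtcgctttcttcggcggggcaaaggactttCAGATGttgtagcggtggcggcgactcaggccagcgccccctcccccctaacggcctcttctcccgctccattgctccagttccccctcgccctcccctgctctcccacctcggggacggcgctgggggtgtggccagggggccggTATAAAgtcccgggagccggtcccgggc
Igfbp5: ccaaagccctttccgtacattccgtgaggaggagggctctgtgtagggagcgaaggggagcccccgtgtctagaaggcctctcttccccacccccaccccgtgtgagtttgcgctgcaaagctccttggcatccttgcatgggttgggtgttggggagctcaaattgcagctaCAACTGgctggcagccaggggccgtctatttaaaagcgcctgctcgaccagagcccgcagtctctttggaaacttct
Igf2r: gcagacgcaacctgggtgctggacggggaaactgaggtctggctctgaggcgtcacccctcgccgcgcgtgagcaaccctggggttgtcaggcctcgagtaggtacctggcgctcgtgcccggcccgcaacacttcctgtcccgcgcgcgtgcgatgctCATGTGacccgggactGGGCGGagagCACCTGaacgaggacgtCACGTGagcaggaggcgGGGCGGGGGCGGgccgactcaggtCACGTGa

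The 4 windows differed in what they held. Igfbp2 had 3 GC boxes, whose first bases lie 113, 98 and 37 bases upstream of the start, and Igf2r had 3, at 75, 31 and 25 bases. Igfbp4 and Igfbp5 had none, whereas 32.7% of 32841 RefSeq promoter windows of the same length held at least 1. Igfbp4 had a TATA box 28 bases upstream, a motif in 12.4% of all windows. The E-box occurred in 66.2% of all windows and in each of the 4, with 4 matches in Igf2r and 1 in each of the others. The CCAAT box was searched as well. It occurred in 33.9% of all windows and in none of the 4. The AP-1 site, read as TGACTCA, occurred in 4.46% and in none of the 4. The windows of Igf2r, Igfbp4, Igfbp2 and Igfbp5 held 27, 22, 14 and 10 CpG dinucleotides, beside a median of 6 over all windows. A match is a description of letters and not evidence of binding.

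Igf1 and Igf2 were the ligand genes, and they did not share a pattern. Igf1 (ENSMUSG00000020053, chromosome 10, 87858265 to 87937042, plus strand) gave 705 reads (1.32 RPKM) in the marrow library and 6946 reads (10.8 RPKM) in the heart library. It was thus low in bone marrow and moderate in heart, 8.20-fold higher there with a 95% counting interval of 7.59 to 8.87 and a log2 difference of 2.35. Igf2 (chromosome 7, 142650766 to 142666816, minus strand), a growth factor of fetal life expressed from the paternal copy, gave 242 reads (0.783 RPKM) in the marrow library and 221 reads (0.595 RPKM) in the heart library. It was below 1 RPKM in both libraries and was not counted in either direction. Summed over both ligands, the level was 2.10 RPKM in the marrow library and 11.4 in the heart library, a ratio of heart to marrow of 5.43. Within bone marrow Igf1 was 1.68 times as high as Igf2, and within heart 18.2 times.

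Macrophages are also known to make Igf1, so their markers are given beside it. Of the 10 haematopoietic and macrophage markers, 3 reached 1 RPKM in each library. Cd53, the highest of them in heart, had 1.03 RPKM in the marrow library against 4.80 in the heart library. Cd14, the highest in bone marrow, had 2.79 and 2.97, and the lysozyme gene Lyz2 had 1.05 and 1.08. Ptprc, the pan-leukocyte antigen CD45, and Adgre1, the macrophage antigen F4/80, were at 0.00469 and 0.00571 RPKM in bone marrow and listed at 0 in heart. Csf1r was also lower in heart, with 0.144 RPKM in the marrow library and 0.104 in the heart library. The rest went the other way: Cd68 had 0.368 and 0.540, Itgam 0.00369 and 0.0184, Mrc1 0.0145 and 0.0169, and Fcgr1 0 and 0.0179. Whether macrophages contributed to the Igf1 reads was not tested.

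Of the receptors, Igf2r was higher in heart and Igf1r was not 2-fold apart. Igf1r (chromosome 7, 67952827 to 68233668, plus strand) gave 9577 reads (14.3 RPKM) in the marrow library and 7920 reads (9.83 RPKM) in the heart library. Its log2 difference was -0.50, and bone marrow was 1.45-fold above heart, with a counting interval of 1.41 to 1.50. Igf2r (chromosome 17, 12682406 to 12769664, minus strand) had 24.9 RPKM in the marrow library and 74.1 in the heart library. Its reads are known only up to a whole-number factor: they were 12678 and 45375 at a length of 9438 bases, the fitting length nearest to that of the gene model, and 4226 and 15125 at 3146 bases, the shortest. Its level in heart was 2.98 times that in bone marrow, with a log2 difference of 1.54. The counting interval was 2.92 to 3.04 at the first length and 2.88 to 3.08 at the second. In heart Igf2r was among the abundant genes, at rank 479 of 49492 against rank 1921 in bone marrow.

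The balance between receptor genes therefore differed between the 2 libraries. The level of Igf2r was 1.74 times that of Igf1r in bone marrow and 7.54 times in heart. The insulin receptor gene Insr, whose product can pair with the IGF1 receptor into hybrid receptors, had 5.57 RPKM in the marrow library against 8.83 in the heart library, a log2 difference of 0.58 that was under the 2-fold threshold. Igf1r was 2.57 times as high as Insr in bone marrow and 1.11 times in heart.

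Igf2r overlaps the row of Airn, a noncoding RNA that starts inside Igf2r and runs the opposite way, by 28354 bases. Airn is known for silencing the paternal copy of Igf2r in many tissues. It gave 124 reads (0.641 RPKM) in the marrow library and 888 reads (3.82 RPKM) in the heart library at the shortest length that gave whole reads, a log2 difference of 1.55. The gene models share 0 exon bases. Whether counting used strand is not given in the sources used here. Without strand, unspliced reads from where the genes overlap cannot be told apart.

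Among binding proteins, Igfbp7 was the most abundant of the 6 in both libraries. Igfbp7 (chromosome 5, 77349240 to 77408041, minus strand) encodes a secreted protein that binds IGFs weakly and also binds insulin and matrix. It gave 26327 reads (403 RPKM) in the marrow library and 51033 reads (651 RPKM) in the heart library, at rank 72 and rank 39 of all genes. Heart was 1.61-fold above bone marrow, with a counting interval of 1.59 to 1.64 and a log2 difference of 0.69, under the 2-fold threshold. Its row shares 85 exon bases with Polr2b on the opposite strand, which stood at 17.7 and 13.2 RPKM, so reads there cannot be assigned with certainty.

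Igfbp5 and Igfbp2 are neighbours on chromosome 1 and went opposite ways. Igfbp5 (72857932 to 72874884, minus strand) encodes a binding protein that attaches to extracellular matrix and is abundant in bone. It gave 6037 reads (18.6 RPKM) in the marrow library and 50399 reads (129 RPKM) in the heart library. The heart level was 6.95-fold higher, with a counting interval of 6.77 to 7.14 and a log2 difference of 2.73, and ranked 152 toward heart among the 7659 genes. Igfbp2 (72824503 to 72852474, plus strand) encodes a binding protein that also contacts integrins at the cell surface. It gave 1556 reads (15.6 RPKM) in the marrow library and 9 reads (0.0751 RPKM) in the heart library. The ratio of bone marrow to heart was 208, with a counting interval of 109 to 455 that is wide because heart gave few reads. On the log2 scale with 1 added the difference was -3.95, which ranked 39 toward bone marrow among the 7659 genes.

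The chromosome 1 genes face each other, with 5457 bases between their 3′ ends. Their levels were close in bone marrow, where Igfbp5 was 1.19 times as high as Igfbp2. In heart Igfbp5 stood at 129 RPKM and Igfbp2 at 0.0751. Igfbp1 and Igfbp3 lie the same way on chromosome 11, 3539 bases apart. Igfbp1, made mainly by the liver, had 0 reads in both libraries, which allows up to 0.0364 RPKM in bone marrow and 0.0303 in heart at 3 reads.

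Igfbp4 and Igfbp3 are both on chromosome 11, and their differences had opposite signs. Igfbp4 (99041244 to 99054392, plus strand) encodes a binding protein known mainly for holding IGF back from its receptor. It gave 9420 reads (39.5 RPKM) in the marrow library and 2320 reads (8.10 RPKM) in the heart library. Bone marrow was 4.88-fold higher, with a counting interval of 4.66 to 5.11 and a log2 difference of -2.15. Igfbp3 (7206086 to 7213923, minus strand) encodes the main IGF carrier of serum. It gave 8 reads (0.0473 RPKM) in the marrow library and 794 reads (3.91 RPKM) in the heart library. That is 82.6-fold more in heart, within a counting interval of 41.7 to 192, and a log2 difference of 2.23. Igfbp3 was therefore near 0 in bone marrow and low in heart, and it was not counted because it stayed below 5 RPKM.

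Igfbp6 (chromosome 15, 102144362 to 102149511, plus strand) encodes a binding protein that prefers IGF2. It gave 132 reads (2.20 RPKM) in the marrow library and 198 reads (2.74 RPKM) in the heart library. Heart was 1.25 times bone marrow, and at the deposited scaling the counting interval of 0.997 to 1.57 just includes equal levels. The 3 other scalings multiply heart by 1.05 to 1.11, which lifts the lower limit above equal levels.

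**Figure D2:**
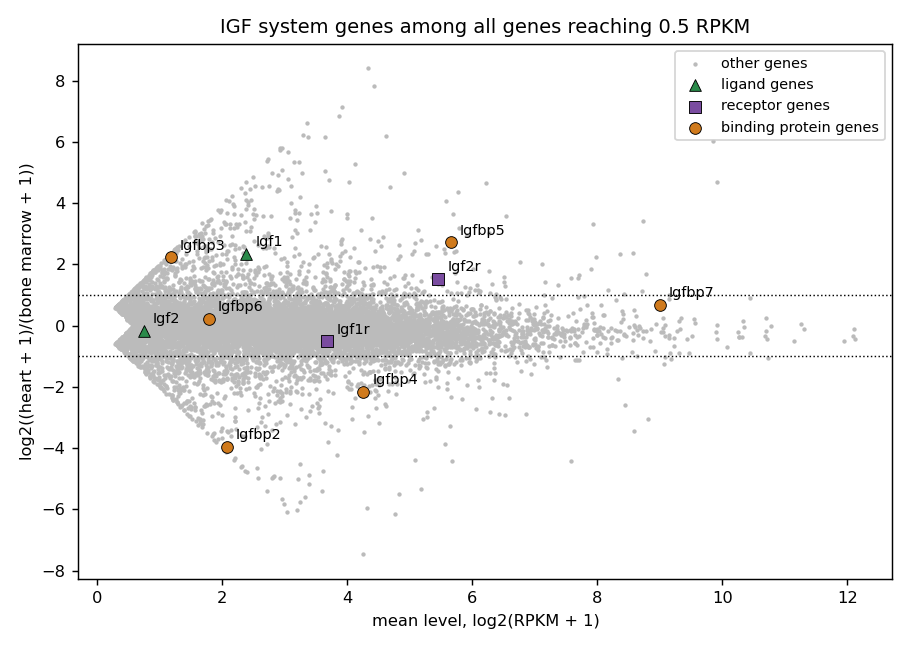
Difference between the libraries, log2((heart + 1)/(bone marrow + 1)), against the mean level, log2(RPKM + 1), for all genes reaching 0.5 RPKM in either library (grey) and the 10 IGF system genes (coloured by role); dotted lines mark 2-fold. Igf1, Igf2r, Igfbp3 and Igfbp5 lie above the upper line, Igfbp2 and Igfbp4 below the lower one, and the other 4 genes between them.

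The 6 binding protein genes summed to 479 RPKM in the marrow library and 795 in the heart library, a ratio of heart to marrow of 1.66. Igfbp7 made up 84.1% of that sum in bone marrow and 81.9% in heart. Without Igfbp7 the other 5 genes summed to 76.0 RPKM in the marrow library and 144 in the heart library. Of this remainder in bone marrow, Igfbp4 held 52.0%, Igfbp5 24.5% and Igfbp2 20.5%. In heart Igfbp5 alone held 89.7%, followed by Igfbp4 with 5.62%, Igfbp3 with 2.71% and Igfbp6 with 1.90%. Below Igfbp7, 3 genes thus each held over 20% in bone marrow, and Igfbp5 was the only such gene in heart.

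**Figure D3:**
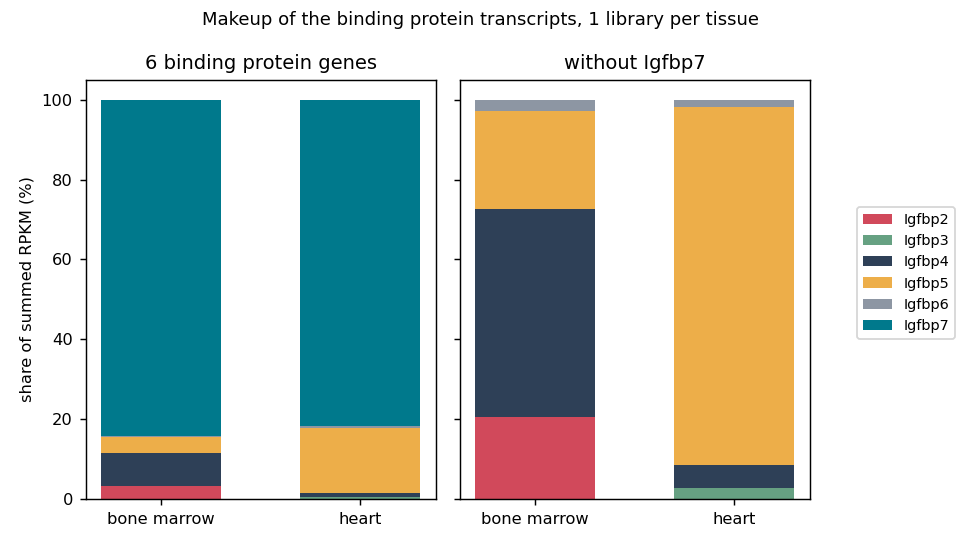
Share of each binding protein gene in the summed RPKM of the 6 genes (left) and of the 5 genes without Igfbp7 (right), in percent, for the bone marrow and heart libraries (1 each, no error bars). Igfbp7 fills over 80% of both bars on the left, and Igfbp5 fills 89.7% of the heart bar on the right against 24.5% in bone marrow.

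The order of levels changed accordingly. In bone marrow it ran Igfbp7, Igfbp4, Igf2r, Igfbp5, Igfbp2, Igf1r, Igfbp6, Igf1, Igf2 and Igfbp3. In heart it ran Igfbp7, Igfbp5, Igf2r, Igf1, Igf1r, Igfbp4, Igfbp3, Igfbp6, Igf2 and Igfbp2. Without replicates, whether neighbours in these orders differ beyond the spread of cultures is not known.

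Other genes of the pathway were mostly within 2-fold. Over 5 lists chosen for their role, 44 of 64 genes reached 5 RPKM, of which 4 were higher in heart, 4 were higher in bone marrow and 36 were neither. That makes 18.2% called, beside 17.1% of all genes.

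Genes listed as proteases that cut binding proteins, or as inhibitors of such proteases, went both ways. Of the 12 listed genes 7 reached the floor, with 1 called toward heart, 2 toward bone marrow and 4 neither. The share called was 42.9% of these 7, beside 17.1% of all genes at this floor. Pappa, which encodes the pregnancy-associated plasma protein A that cleaves IGFBP4 and IGFBP5, had 2.19 RPKM in the marrow library against 15.4 in the heart library, a log2 difference of 2.36. Igfbp4 was therefore 18.1 times as high as Pappa in bone marrow and 0.526 times in heart. The serine protease gene Prss23 had 105 RPKM in the marrow library against 11.8 in the heart library (-3.05). It was on the list, but that its product cuts a binding protein is not established here. Adam12, which encodes a membrane protease that can cut IGFBP3 and IGFBP5, stood at 8.16 and 2.23 RPKM (-1.50).

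The remaining proteases of the list at the floor did not reach 2-fold. The lysosomal cathepsin genes Ctsb and Ctsd had log2 differences of 0.95 and 0.87, a little under the threshold. The membrane protease gene Adam9 had -0.05. The serine protease gene Htra1, named after its values were seen, had 52.1 RPKM in the marrow library and 66.4 in the heart library (0.34). The 5 genes of the list under the floor are named after their values were seen. Stc1 and Stc2, which encode inhibitors of pregnancy-associated plasma protein A, had 0.0495 and 1.83 RPKM in the marrow library against 0.857 and 1.23 in the heart library. The serine protease gene Htra3 had 1.97 and 0.290 RPKM, Pappa2, a relative of Pappa, had 0.489 and 0.563, and Adam28 had 0.00503 and 0.00419.

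Of the 3 genes for Igf2 mRNA-binding proteins, which bind Igf2 and other messenger RNAs in the cytoplasm, Igf2bp2 reached the floor. It had 8.01 RPKM in the marrow library against 20.4 in the heart library, a log2 difference of 1.25. Igf2bp3 and Igf2bp1, named after their values were seen, stood at 0.270 and 0.128 RPKM in bone marrow and at 2.70 and 0.764 in heart.

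Adaptors of the IGF1 and insulin receptors also went both ways. Of 18 genes 13 reached the floor, of which 1 was higher in heart, 2 were higher in bone marrow and 10 were neither. The share called was 23.1%, near the 17.1% of all genes at this floor. Irs1, which encodes the docking protein phosphorylated by both receptors, had 8.68 RPKM in the marrow library against 2.59 in the heart library (-1.43). Grb14, which encodes an adaptor that inhibits the insulin receptor, stood at 7.16 and 0.382 RPKM (-2.56). Grb10, an imprinted relative of Grb14, had a log2 difference of -0.86, under the threshold. Sh2b3, which encodes the adaptor LNK, stood at 6.53 and 14.3 RPKM (1.02). Shc1, which links receptors to the Ras pathway, had 0.84, and Gigyf1, whose product binds Grb10, had 0.52.

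The kinase cascade downstream was within 2-fold for most of its genes, as were most genes of any kind at this floor. The share called was 4.76%, beside 17.1% of all genes. Of 25 genes of the PI3K, AKT, FOXO and mTOR steps 21 reached the floor, of which 1 was higher in heart, 0 were higher in bone marrow and 20 were neither. Pik3r1, which encodes a regulatory subunit of PI3K, had 9.66 RPKM in the marrow library against 21.3 in the heart library (1.07). Inppl1, which encodes a lipid phosphatase that acts on the product of PI3K, had 0.63, under the threshold. The kinase gene Akt1 stood at 86.0 and 56.2 RPKM (-0.61). The forkhead factor gene Foxo3, whose product AKT keeps out of the nucleus, had 0.73. The translation repressor genes Eif4ebp1 and Eif4ebp2, whose products mTOR inactivates, had -0.56 and -0.43. Kazald1, a secreted relative of the binding proteins, had -0.91, with 7.13 RPKM in the marrow library and 3.32 in the heart library. The calls of Sh2b3 and Pik3r1 lie just over the threshold, and with a pseudocount of 5 only 3 of the 8 pathway calls were counted.

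**Figure D4:**
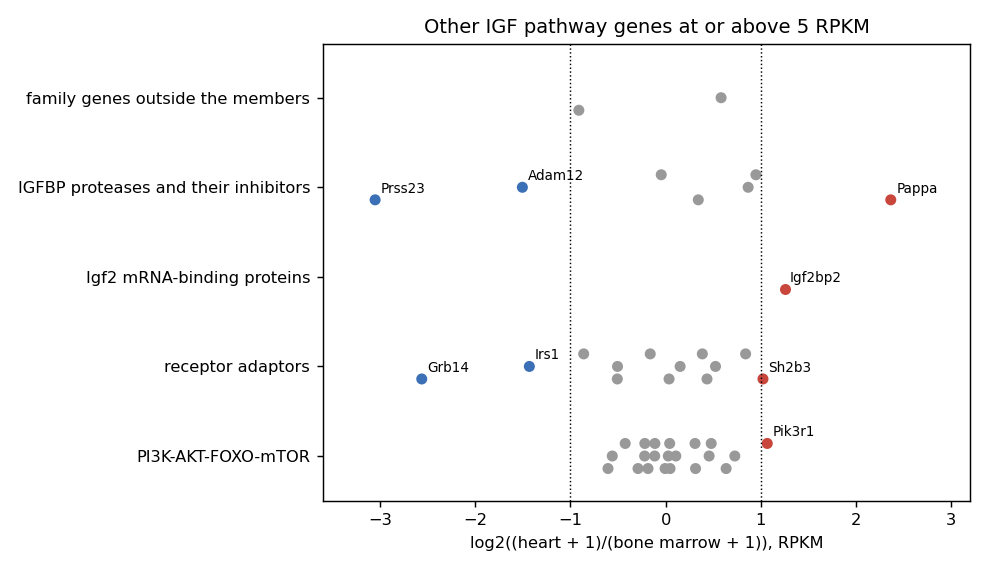
Difference between the libraries, log2((heart + 1)/(bone marrow + 1)) in RPKM, for each of the 44 other pathway genes at or above 5 RPKM, by list; red points are counted as higher in heart, blue as higher in bone marrow, grey as neither, and dotted lines mark 2-fold. Prss23 and Grb14 lie farthest toward bone marrow and Pappa farthest toward heart.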

How the data were processed

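RNA sequencing of cultured bone marrow and heart Nestin+ cells gave 1 library per tissue. Per the file headers, the authors deposited RPKM values, here 49585 gene rows. The submitters' processing notes name the build mm8. Yet 45149 rows (91.1%), the 10 members among them, match a GENCODE M21 gene model on GRCm38 in chromosome, start, end and strand, so the files' coordinates are taken as GRCm38. Aligner, counting tool and strand setting: not given in the sources used here.

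Reads were recovered as whole multiples of what 1 read is worth. This gave whole reads within 0.02 in each library for 12292 (86.2%) of 14255 genes that were detected in each and had a known exon length. For 8 of 10 members the length of the gene model gave whole reads and was used. For Igfbp3, Igfbp4 and Igfbp6 shorter lengths (1565, 1104 and 556 bases) fitted too, so their reads and intervals assume the gene model. For the other 2, lengths from 100 to 40000 bases were searched with a tolerance of 0.0005 reads. Any multiple of a fitting length fits too, so the reads of Igf1r and Igf2r are known only up to a whole-number factor. For Igf1r the shortest, 12424 bases, was used. For Igf2r the shortest was 3146 bases, and its multiple 9438 was chosen as the nearest to the 9308 bases of the gene model. RPKM values and ratios do not depend on this choice, but reads and counting intervals do. Counting intervals are exact conditional (Clopper-Pearson) 95% intervals of the read ratio and cover counting error only, since such reads, counted without molecular identifiers, need not be separate molecules. A count of 0 is given with the limit that 3 reads allow.

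Of rows sharing a symbol, the one with the highest mean was kept. The pseudocount was 1 RPKM. No count model and no test was run. Named genes are the 10 members, Insr and Igfbp1, up to 3 genes in each direction with the largest difference at or above 5 RPKM in each other pathway list, and rows at or above 0.1 RPKM that overlap a member. Outside this rule, Stc1, Stc2, Htra1, Htra3, Pappa2, Adam28, Igf2bp1, Igf2bp3 and some cell type markers were named after their values were seen. Of the pathway lists, 1 gene is not reported here and was left out of their counts. The members and lists were chosen with earlier results of these data known. Alternatives were other pseudocounts, floors, a 4-fold threshold, summed rows and 3 scalings. Promoter windows came from RefSeq (GRCm38.p6), and a start was found for each member. The work was done in Python 3.11.15 with scipy 1.17.1, pandas 2.3.3 and numpy 2.4.6, drawn with matplotlib 3.10.9, and tested on simulated data.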

Additional observations from a re-analysis of the deposited data

How the results depend on the processing

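Each of the 10 members kept the sign of its difference under 7 alternatives each: pseudocounts of 0.1 and 5, none, 3 scalings and summed rows. None of these could have changed a sign, so this gives no support. A pseudocount does not alter a sign, and summing rows left each member's value unchanged. The 3 scalings multiply heart by 1.05 to 1.11, which only raises positive differences. Of the members with negative differences, Igf2 was nearest to equal levels, with heart at 0.760 times bone marrow. At a floor of 20 RPKM Igf1 and Igfbp2 were left out and the bone marrow count was 1. Igf2r and Igfbp5 among the heart calls and Igfbp4 among the bone marrow calls lie above that floor. Their calls had to stay, because a floor does not alter a difference. At 4-fold Igf2r was no longer counted, and at a floor of 1 RPKM Igfbp3 was added to the heart calls. The count of other pathway genes 2-fold apart, 8, was 3 with a pseudocount of 5, 3 at a floor of 20 RPKM and 3 at 4-fold. It was 9 with a pseudocount of 0.1, 11 at a floor of 1 RPKM and 8 with summed rows. Scaled by the median ratio it was 10, and by the upper quartile or the trimmed mean 9. The median difference of the members, 0.69, was 1.11 over those at or above 20 RPKM. Only Igf2r, Igfbp4, Igfbp5 and Igfbp7 reached that level, so this value rests on few genes. Scaling by the median ratio moved all genes by 0.15 on the log2 scale. Under that scaling, the upper quartile and the trimmed mean the members' median was 0.84, 0.78 and 0.76, and the ratio of summed binding protein levels, 1.66, was 1.84, 1.76 and 1.74. Without Igfbp7 that ratio was 1.90. The ratio of summed ligand levels, 5.43, was 6.02 under the median ratio. No paired analysis was possible because each tissue has 1 library, and for the same reason no library could be left out. The 9 reads of Igfbp2 in heart and the 8 of Igfbp3 in bone marrow limit how closely their ratios are known, and the spread between cultures is unknown for every gene.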
